A study of Rattus norvegicus with 17 samples.

Results

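The 10 genes described here are clock-controlled or clock-forming genes chosen by name: the period genes Per1, Per2 and Per3, the PAR bZIP transcription factor genes Dbp, Tef and Hlf, the nuclear receptor genes Nr1d1 and Nr1d2, the repressor gene Ciart, and Clock. They are 10 of the 34322 genes in the count table. They were picked by gene symbol, with earlier results of these data known. RNA had been sequenced from the hippocampus of 17 adolescent Long-Evans rats aged 36 to 38 days, with the aim of comparing gene expression after prenatal ethanol exposure with that of controls. The dams of the ethanol-exposed group (ET, n = 5, labelled 3 males and 2 females) drank a liquid diet with 6.7% ethanol from gestational day 0 to 20, the pair-fed dams (PF, n = 6, labelled 3 males and 3 females) received a control liquid diet without ethanol in an amount yoked to an ET dam, and the ad libitum dams (AD, n = 6, labelled 3 males and 3 females) had free access to chow. All dams ate chow from gestational day 20 on. Each diet was represented by the offspring of 1 litter, 4 of the 17 samples came from the right hippocampus and the rest from the left, and the hour of collection is not given in the sources used here. Diet, litter and hour of collection therefore cannot be told apart in any comparison below, and the p-values measure the spread between littermates.

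The circadian clock is a transcriptional feedback loop that runs in most cells of the body. The proteins of Clock (or its relative Npas2) and Arntl (also called Bmal1) pair and bind E-box sequences in the promoters of the Per and Cry genes, of Nr1d1 and Nr1d2, of Dbp, Tef and Hlf and of Ciart. PER and CRY proteins then inhibit that pair, the nuclear receptors encoded by Nr1d1 and Nr1d2 repress Arntl, the product of Ciart represses the CLOCK and BMAL1 pair, and the products of Dbp, Tef and Hlf activate genes with a D-box sequence, which the product of Nfil3 represses. Transcripts of many of these genes rise and fall over the day in the hippocampus, and Per1 also responds to neuronal activity and to glucocorticoids.

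Promoter windows of 250 bases before the annotated start were read for 9 of the 10 genes from RefSeq on the GRCr8 assembly, in 11 windows, since Nr1d1 and Clock each had more than 1 start. The windows that held a clock motif are shown, so that its place can be seen beside the levels of the gene, and capitals mark the motifs. The searched motifs were the E-box CACGTG, its noncanonical form CACGTT, the D-box TTATGTAA and the ROR response element core TAGGTCA, on both strands, and no 2 matches in these windows overlapped. Each sequence runs 5′ to 3′ on the strand of its gene.
Ciart, chr2:186112247-186112496, minus strand: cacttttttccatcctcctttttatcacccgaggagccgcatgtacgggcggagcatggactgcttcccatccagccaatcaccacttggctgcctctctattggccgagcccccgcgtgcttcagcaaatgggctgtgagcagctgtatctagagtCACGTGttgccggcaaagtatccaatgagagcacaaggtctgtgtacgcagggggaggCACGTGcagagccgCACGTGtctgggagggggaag
Nr1d1 start 1, chr10:84231813-84232062, minus strand: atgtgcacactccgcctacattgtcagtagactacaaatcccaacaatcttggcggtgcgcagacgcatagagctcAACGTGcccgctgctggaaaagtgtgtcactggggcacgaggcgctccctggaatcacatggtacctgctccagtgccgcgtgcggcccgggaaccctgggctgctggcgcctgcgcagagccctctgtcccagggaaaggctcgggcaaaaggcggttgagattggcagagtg
Nr1d1 start 2, chr10:84229455-84229704, minus strand: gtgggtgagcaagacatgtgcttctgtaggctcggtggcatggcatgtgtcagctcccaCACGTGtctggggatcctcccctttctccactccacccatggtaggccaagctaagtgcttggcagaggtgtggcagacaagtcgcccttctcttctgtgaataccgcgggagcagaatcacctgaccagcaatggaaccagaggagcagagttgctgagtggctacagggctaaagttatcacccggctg
Per2, chr9:99496994-99497243, minus strand: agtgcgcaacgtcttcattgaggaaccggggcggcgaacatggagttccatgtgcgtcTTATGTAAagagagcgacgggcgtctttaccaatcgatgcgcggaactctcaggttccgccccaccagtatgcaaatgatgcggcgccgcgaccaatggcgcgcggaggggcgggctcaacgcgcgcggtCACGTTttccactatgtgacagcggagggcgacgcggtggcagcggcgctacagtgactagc
Tef, chr7:115206577-115206826, plus strand: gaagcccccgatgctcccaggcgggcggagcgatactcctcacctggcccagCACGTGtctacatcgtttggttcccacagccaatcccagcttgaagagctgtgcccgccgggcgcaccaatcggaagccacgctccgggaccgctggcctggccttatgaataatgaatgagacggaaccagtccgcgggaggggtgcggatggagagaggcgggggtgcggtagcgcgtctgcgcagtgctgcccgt

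The Ciart window held 3 E-boxes, which began 93, 35 and 21 bases before the start. The second Nr1d1 window held an E-box that began 191 bases before its start, and the Tef window held one that began 198 bases before its start. A noncanonical E-box stood in the first Nr1d1 window, 174 bases before the start on the opposite strand, and in the Per2 window, 62 bases before the start. Per2 also held a D-box, which began 192 bases before the start. Among 33469 rat promoter windows of the same length, 5.59% held an E-box, 4.07% the noncanonical form, 0.828% a D-box and 2.26% the ROR core. The windows of Per1, Per3, Dbp, Nr1d2 and Clock held none of these 4 letter strings, and none of the 11 windows held the ROR core.

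**Figure D1:**
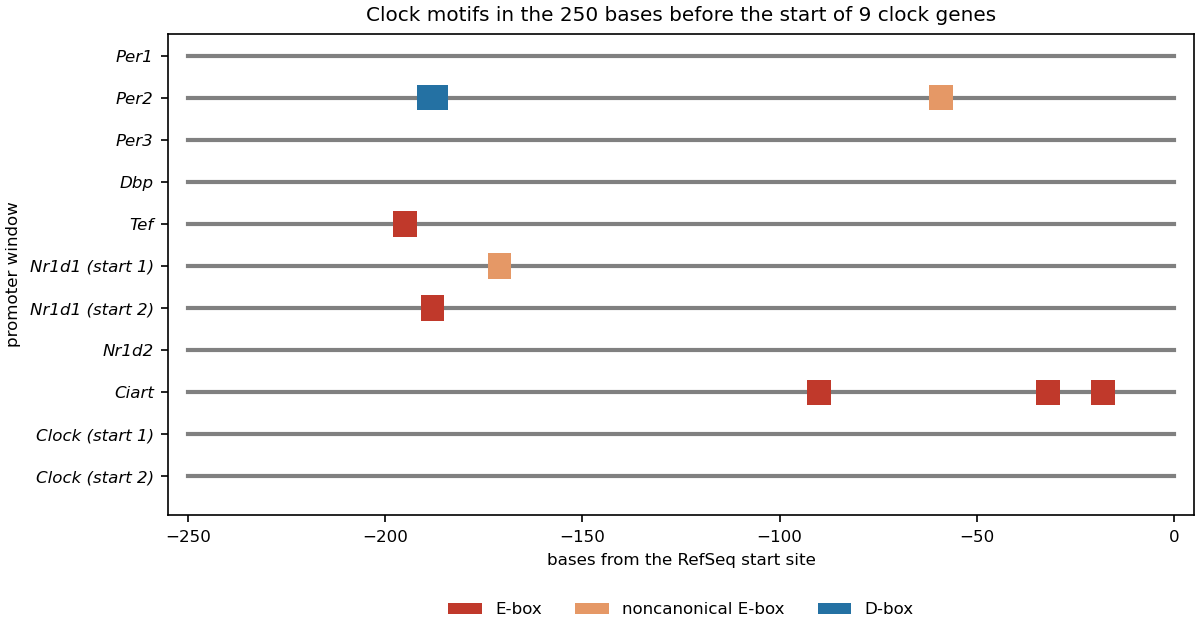
Position of E-boxes, noncanonical E-boxes and D-boxes (coloured blocks) in the 250 bases before the RefSeq start site of 9 clock genes; the x axis gives bases from the start site and each grey line is 1 window. Ciart held 3 E-boxes within 93 bases of its start, and 6 of the 11 windows held no motif.

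The libraries held 10853947 to 17498392 fragments each, the mean of 3 technical replicates. Levels are given below as normalized fragment counts, that is, counts divided by the TMM effective library size and multiplied by its mean, and they are not compared between genes because they are not per length. All 10 clock genes passed the filter on low counts in every comparison. Transcripts of hippocampal neurons such as Prox1, Wfs1 and Camk2a were present in every library, and so were some of 7 genes used as markers of the suprachiasmatic nucleus, whose summed count was 387 to 872. Of these 7, 3 passed the filter on low counts, among them the neuropeptide gene Vip, at 222 to 532, which hippocampal interneurons express too, and Grp, at 45.5 to 249. Avp, another neuropeptide gene of that nucleus, did not exceed 23.1 normalized counts, and Six6, one of its transcription factor genes, was at 0 in 15 of 17 libraries. The summed count of 10 choroid plexus genes was 127074 in ET replicate 2, 136910 in PF animal 11f6 and 149061 in AD replicate 4, against at most 23202 in the other 14 libraries. The summed count of 9 pineal genes was 14299 in AD replicate 6, against at most 136 in the others. Y-linked transcripts went against the sex label in 2 AD libraries, so AD was left out of the sex comparison. Since whole tissue was measured, fewer cells of a type and less RNA per cell cannot be told apart.

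Mean levels of 8 of the 10 clock genes were lowest in ET, and those of 8 were highest in PF. For 7 genes, the 3 period genes, Dbp, Tef, Nr1d1 and Nr1d2, both held at once, an order found in 18.5% of the 16280 genes that passed the filter over all diets. The differences were small. In the comparison of ET with PF, 9 of the 10 log2 fold changes were below 0, with a median of -0.23 against 0.01 over all 16088 genes tested, and 46.8% of all genes were below 0. None of the 10 passed an adjusted p of 0.05 in edgeR's quasi-likelihood test, which called 5.46% of all genes. None passed a stricter rule, an absolute log2 fold change over 1.5 together with an adjusted p under 0.01, which 2.18% of all genes passed. Before adjustment, 4 of the 10 (Per1, Per2, Per3 and Nr1d1) were lower in ET at p below 0.05, compared with 8.34% of all genes. DESeq2 gave the same number before adjustment, compared with 7.73% of all genes, and called 1 of the 10, Per2, compared with 5.94% of all genes. Without the 3 libraries rich in choroid plexus transcripts, none was called, and 3 (Per1, Per2 and Nr1d1) were lower before adjustment. PF animals 11f5 and 11f6, which had the highest PF values of Per2 and Per3, carry no replicate number. When these 2 were left out, none was called, 3 were lower before adjustment, and the median over the 10 genes was -0.15. With the replicate numbers as a block in that same set of samples, of which ET and PF share 3, none was called, 2 were lower before adjustment, and the median was -0.04.

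**Figure D2:**
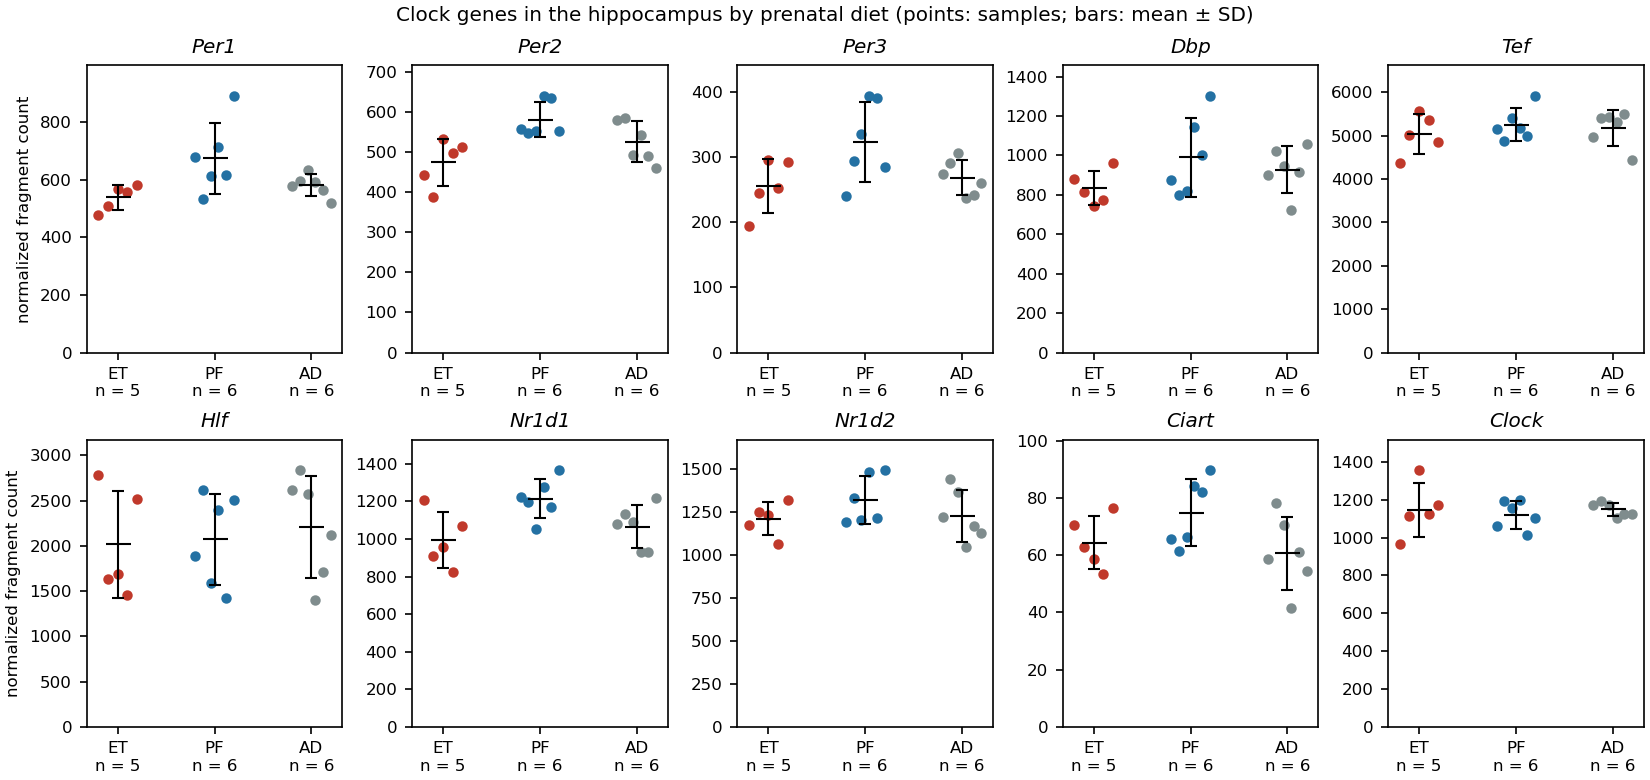
Normalized fragment counts of the 10 clock genes in each sample (points) of the ET (n = 5), PF (n = 6) and AD (n = 6) groups; each y axis starts at 0, and black bars give the mean ± SD. Per2 is the gene whose ET and PF samples do not overlap, with ET at most 532 and PF at least 548, and Hlf spreads widely within every diet, between a lowest value of 1401 and a highest of 2834 over all samples.

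Per2 encodes a core inhibitor of the loop. Its normalized count in the 5 ET samples was 442, 388, 532, 497 and 512. In the 6 PF samples the lowest was 548, the median 555 and the highest 639. Every ET sample was therefore below every PF sample. The 2 diets did not overlap, in either direction, for 1 of the 10 clock genes and for 5.29% of all genes. The mean was 474 ± 58.6 (SD, n = 5) in ET and 580.5 ± 43.6 (SD, n = 6) in PF. The log2 fold change was -0.29 (SE 0.08), or -18.2% with a 95% interval from -27.9% to -7.19%, and its adjusted p in edgeR's test was 0.075. This value stood near the threshold, and the adjusted p of Per2 passed it at 0.029 in DESeq2, at 0.023 with hemisphere as a covariate, at 0.045 in a fit of all 3 diets and at 0.042 in edgeR without ET replicate 3. It was 0.24 without the 3 choroid plexus-rich libraries, where the log2 fold change was -0.20. In other edgeR fits the smallest adjusted p of the 10 clock genes, Per2 among them, was also above the threshold. That smallest value was 0.39 with the replicate block and 0.34 without PF animals 11f5 and 11f6. It was 0.17 without PF animal 11f5, 0.15 without PF animal 11f6 and 0.13 without ET replicate 2. The AD samples lay between, from 461 to 584 with a median of 518, and overlapped both other diets.

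Per1, which encodes another core inhibitor, had counts of 477, 509, 567.7, 558 and 582 in ET. The PF samples ran from 532 to 890.0 with a median of 646, and the AD samples from 518 to 634 with a median of 585. Of the 6 PF samples, 5 were above every ET sample and PF replicate 2, at 532, lay within the ET range. The log2 fold change of ET against PF was -0.32 (SE 0.11), with an adjusted p of 0.17 in edgeR's test. Per3, which encodes a period protein with a lesser part in rhythm generation, had counts of 194, 244, 296, 252 and 292 in ET. The PF samples ran from 241 to 394 with a median of 314, so the 2 diets overlapped widely. Its log2 fold change was -0.34 (SE 0.14), with an adjusted p of 0.30 in edgeR's test.

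Nr1d1 encodes REV-ERBα, the repressor of Arntl. Its counts in ET were 1208, 909, 955, 823 and 1069. In PF they ran from 1056 to 1366 with a median of 1210.3, and in AD from 931 to 1220.1 with a median of 1085. Of the 5 ET samples, 3 were below every PF sample. The log2 fold change of ET against PF was -0.29 (SE 0.09), or -18.1% with a 95% interval from -29.0% to -5.50%, and the adjusted p in edgeR's test was 0.14. Without ET replicate 1, the log2 fold change was -0.37 and the adjusted p of Nr1d1 was 0.017. Over all fits that left out 1 sample, the log2 fold change ranged from -0.37 to -0.22. Nr1d1 overlaps Thra, the thyroid hormone receptor alpha gene, in the RefSeq annotation, and the strand setting of the counting is not given in the sources used here, so reads from the overlap cannot be told apart. Thra counts ran from 5359 to 6678 in ET and from 6102 to 8179 in PF. Nr1d2, which encodes the related receptor REV-ERBβ, had counts of 1179, 1253, 1237, 1068 and 1324 in ET and from 1193 to 1495 in PF. Its log2 fold change was -0.12 (SE 0.08), with a 95% interval from -18.1% to 3.04%, and -0.08 without ET replicate 4.

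Dbp, an output gene of the loop, had counts of 879, 813, 742, 776 and 962 in ET. In PF they ran from 797 to 1301 with a median of 938, and in AD from 722 to 1059 with a median of 931. The log2 fold change of ET against PF was -0.24 (SE 0.13), with a 95% interval from -30.2% to 2.13%, and it was -0.15 without PF replicate 6. Ciart was the least abundant of the 10 in counts and so the one with the largest counting error: its values were 70.4, 62.9, 58.6, 53.3 and 76.5 in ET, 61.3 to 89.6 in PF and 41.5 to 78.0 in AD. Its log2 fold change was -0.21 (SE 0.13), with a 95% interval from -29.3% to 4.97%. PF replicate 6 had the highest value of all 17 samples for Per1, Dbp, Tef, Nr1d1, Nr1d2 and Ciart.

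Tef, which encodes a relative of the Dbp product, had counts of 4381, 5007, 5570.3, 5372 and 4859 in ET and from 4878 to 5915 in PF. Its log2 fold change was -0.06 (SE 0.07), with a 95% interval from -13.7% to 6.61%. It was -0.02 without ET replicate 1, -0.03 without PF replicate 6 and -0.10 without ET replicate 3. Clock, whose product is the activating partner of BMAL1, had counts of 965, 1115, 1356, 1122 and 1172 in ET and from 1012 to 1197 in PF. Its log2 fold change was 0.03 (SE 0.08), which is a fold of 1.02 with a 95% interval from 0.911 to 1.15. Hlf had counts of 2786, 1629.6, 1684, 1460.4 and 2519.5 in ET and from 1425 to 2615 in PF. Its interval for ET against PF was the widest of the 10, from -28.3% to 33.0%, around a log2 fold change of -0.03 (SE 0.20). Clock and Hlf changed sign under some of the alternatives, so no direction is given for them.

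**Figure D3:**
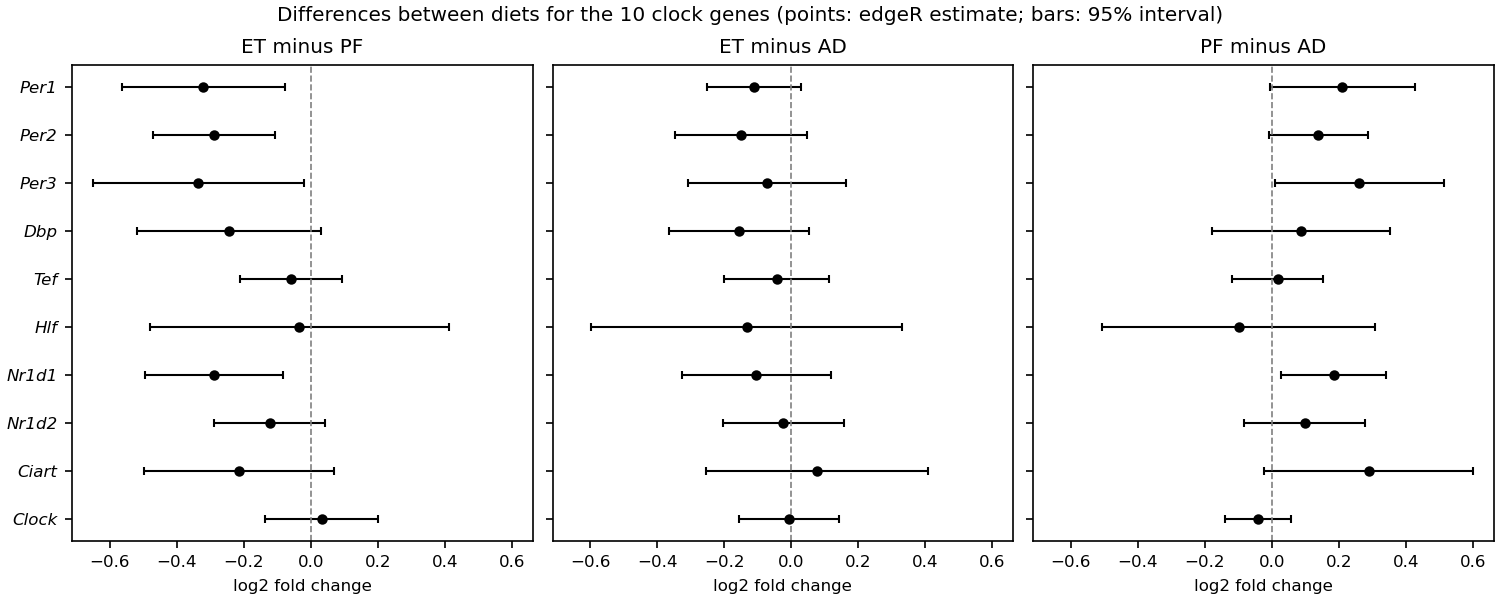
Log2 fold change (x axis) of each clock gene (y axis) between diets, as edgeR estimates (points) with 95% intervals (bars). In the ET minus PF panel 9 of 10 points are below 0, and the intervals of Per1, Per2, Per3 and Nr1d1 lie wholly below 0 before any adjustment for the number of genes tested.

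Some markers of other cell types differed between ET and PF. Of the oligodendrocyte genes Mbp and Mog, which encode myelin proteins, Mbp was higher in ET in edgeR's test, with a log2 fold change of 0.45 (adjusted p = 0.026), whereas that of Mog was -0.06 (adjusted p = 0.86). Neither was at 0 in any library. Gfap, an astrocyte gene, was also higher in ET, with a log2 fold change of 0.31 (adjusted p = 0.044), and the summed count of 4 astrocyte genes overlapped between ET, at 34218 to 45397, and PF, at 33837 to 41669. Of 7 thalamus and habenula genes tested, 1 was called, Tnnt1, which was higher in ET with a log2 fold change of 1.67 (adjusted p = 0.00098 in edgeR's test). The summed count of the thalamus and habenula list was 1031 to 1714 in ET, with a median of 1375, and 721 to 1377 in PF, with a median of 968, so the diets overlapped. Of 10 glucocorticoid-responsive genes, 1 was called, Hif3a, which was lower in ET with a log2 fold change of -1.06 (adjusted p = 0.011 in edgeR's test). The part of these cell types and gene groups in the differences of the clock genes was not tested.

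ET and AD are compared next. In edgeR's test, which called 0.0382% of 15700 genes, the 10 clock genes gave no call, and DESeq2 gave none either. Before adjustment none of the 10 passed 0.05 in edgeR's or DESeq2's test, compared with 4.57% of all genes in edgeR. With some samples left out, 1 of the 10 was lower in ET at that level in edgeR's test: Dbp over the 14 samples without the choroid plexus-rich libraries, without ET replicate 5 and without AD replicate 4, and Per1 without AD replicate 6. The normalized counts of ET and AD overlapped for every one of the 10, and failed to overlap for 0.596% of all genes. Here 9 of the 10 log2 fold changes were below 0, with a median of -0.09 against 0.00 over all genes. This depended on single samples: without ET replicate 1, 6 of the 10 were below 0 with a median of -0.04, and without AD replicate 2, 7 were below 0 with a median of -0.05. The median was -0.06 without ET replicate 4 and -0.06 without AD replicate 3, with 8 below 0 in each. The 95% interval of Per2 ran from -21.3% to 3.24%, that of Nr1d1 from -20.3% to 8.57%, that of Dbp from -22.4% to 3.77% and that of Per1 from -15.9% to 2.08%. ET is compared with PF and AD in turn, so these comparisons share the ET samples.

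PF and AD are the diets without ethanol. In PF, 8 of the 10 clock genes had log2 fold changes above 0 against AD, with a median of 0.12 compared with -0.01 over all 15902 genes. None was called in edgeR's test, which called 6.19% of all genes, and DESeq2 called none. Before adjustment 2 of the 10, Nr1d1 and Per3, were higher in PF, compared with 9.62% of all genes. Nr1d1 had a log2 fold change of 0.18 (SE 0.07), or 13.6% with a 95% interval from 1.96% to 26.6%, and Per3 one of 0.26 (SE 0.12), with adjusted p-values of 0.20 and 0.27. Ciart had a log2 fold change of 0.29 (SE 0.14) and an interval from -1.51% to 51.6%. The count of 2 depended on single samples, since it ranged from 0 to 5 when 1 sample was left out: it was 5 without PF replicate 2, 4 without AD replicate 2 or AD replicate 3, 1 without PF replicate 3, PF animal 11f5, PF replicate 6 or AD replicate 6, and 0 without AD replicate 4 or AD replicate 5. It was 0 without the 3 choroid plexus-rich libraries and 0 without PF animals 11f5 and 11f6, where the median over the 10 genes was 0.08. It was also 0 with the replicate block in the samples that carry a number, with a median of 0.05.

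A list of other genes of the clock pathway held 29 that passed the filter on low counts. In edgeR's test none of the 29 was called between ET and PF or between ET and AD. Between ET and PF, Sfpq was called by DESeq2, by edgeR in the fit of all 3 diets and by edgeR without PF replicate 6, and Kmt2a by edgeR without ET replicate 3. Before adjustment, 1 of the 29 was higher in ET than in PF at the 0.05 level, Nfil3, whose product represses D-box genes (log2 fold change 0.24, SE 0.09), compared with 6.02% of all genes, and 2 were lower, Sfpq and Noct, compared with 8.34%. The log2 fold change of Nfil3 was 0.16 without ET replicate 1. The count of 1 was 0 without ET replicate 1 or PF animal 11f6, over the 14 samples without the choroid plexus-rich libraries and without PF animals 11f5 and 11f6, with or without the replicate block, and 2 without PF replicate 2 or PF replicate 6. The count of 2 was 5 without ET replicate 3, 3 without ET replicate 1 or PF replicate 6, and 1 without ET replicate 4, ET replicate 5, PF replicate 1, PF replicate 3 or PF animal 11f5. It was also 1 over the 14 samples and without PF animals 11f5 and 11f6, with or without the replicate block, and 3 without the filter. Between ET and AD none of the 29 passed that level in edgeR's or DESeq2's test of all samples. In other edgeR fits a few genes did, named here after their values had been seen: Bhlhe41 and Sirt1 were higher in ET without ET replicate 1, Wdr5 in the fit of all 3 diets and Usp2 with the replicate block, and Btrc was lower without ET replicate 3. With the neocortex and subiculum covariate described below, Usp2 was higher and Npas2 lower. Between PF and AD, 2 of the 29 were called, compared with 6.19% of all genes, both higher in PF: Kmt2a, which encodes a histone methyltransferase, at 0.28 on the log2 scale (SE 0.05, edgeR adjusted p = 0.0013), and Sfpq, which encodes an RNA-binding partner of PER proteins, at 0.17 (SE 0.04, edgeR adjusted p = 0.014). Kmt2a was 1632 to 1863 in PF and 1354 to 1500.3 in AD, with no overlap, and Sfpq was 2007 to 2298 in PF and 1818 to 1987 in AD, also with no overlap, which held for 4.86% of all genes. The adjusted p of Kmt2a was 0.21 in the fit of all 3 diets, where the ET samples spread from 1044 to 2122, and that of Sfpq was 0.075 without the 3 choroid plexus-rich libraries, 0.084 without PF animals 11f5 and 11f6 and 0.19 with the replicate block. Arntl, which encodes BMAL1, was 376 to 508 in ET, 301 to 441 in PF and 368 to 457 in AD, with a log2 fold change of 0.18 (SE 0.10) for ET against PF and -0.17 (SE 0.08) for PF against AD. Without ET replicate 1 the former was 0.10, and without PF animal 11f6 the latter was -0.11. Cry1 and Cry2, whose products inhibit CLOCK and BMAL1 together with PER, had log2 fold changes of 0.03 (SE 0.08) and -0.08 (SE 0.05) for ET against PF. Cry2 ranged from -0.10 to -0.05 when 1 sample was left out, and Cry1 changed sign under some alternatives. Npas2, which encodes the relative of CLOCK, had a log2 fold change of -0.10 (SE 0.27) and also changed sign.

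Sexes were compared within ET and PF, with diet as a term. None of the 10 clock genes was called in edgeR's test, which called 0.0497% of 16088 genes, and DESeq2 called none. Before adjustment 1 of the 10, Dbp, was higher in males, compared with 1.13% of all genes, with a log2 fold change of 0.28 (SE 0.10) and an adjusted p of 1.0. In PF, Dbp was 1144, 999.7 and 1301 in males and 875, 797 and 819.5 in females. The sexes did not overlap in PF for 2 of the 10 clock genes, Dbp and Ciart, and for 6.79% of all genes. In ET it was 813, 776 and 962 in males and 879 and 742 in females, which overlapped. The interaction of sex and diet for Dbp was -0.41 (SE 0.17) on the log2 scale, with an adjusted p of 1.0 in edgeR's quasi-likelihood test. None of the 16705 genes tested (0%) was called for the interaction by edgeR or by DESeq2, and 1.53% had an unadjusted p below 0.05 in edgeR, among them 1 of the 10 clock genes. That count was 3 without ET replicate 3 or ET replicate 5, 1 without PF animal 11f6 and 0 without any other single sample. The count of clock genes higher in males before adjustment was 3 without ET replicate 3, 2 without ET replicate 1, ET replicate 4 or PF animal 11f6, and 2 over the samples without the choroid plexus-rich libraries.

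Hlf varied most among the 10. The standard deviation of its log2 count within diets was 0.39, higher than in 88.8% of the 16280 genes that passed the filter, against 0.11 for Clock and 0.12 for Tef. The median was 0.17 over the 10 genes and 0.16 over all genes. Spread was also ranked among genes within 1.5-fold of the mean level of each gene. There the percentile was 98.0 for Hlf, 89.1 for Dbp, 83.8 for Per3, 78.8 for Nr1d1 and 78.4 for Per1. It was 73.0 for Nr1d2, 66.7 for Per2, 63.1 for Ciart, 52.5 for Clock and 43.9 for Tef. The genes with the most similar pattern to Hlf over the 17 samples, chosen after its values had been seen, were Tshz2, Satb1, Tbr1 and Tshz3, of which Tbr1 encodes a transcription factor of glutamatergic neurons of the neocortex. A list of 10 neocortex and subiculum genes, chosen after that pattern had been seen and containing the first 3 of them, divided the 17 samples. In 8 samples, 3 of ET, 3 of PF and 2 of AD, the summed count was 7391 to 9664, and in 9 samples, 2 of ET, 3 of PF and 4 of AD, it was 11985 to 18859.

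Hlf was 1401 to 1887 in the 8 samples with the lower sum and 2114 to 2834 in the 9 with the higher sum. It was the 1 clock gene of the 10 without overlap, compared with 2.06% of all genes, and since the list was built from its own pattern this is a description and not a test. Npas2 behaved likewise, at 492.9 to 744 and 837 to 1195. Among the other genes, Nr1d1 was 823 to 1222 and 1069 to 1366, and Dbp 722 to 999.7 and 797 to 1301, with overlap in both. Prox1, a marker of dentate granule neurons, was 304 to 682 in the samples with the lower sum and 110 to 444 in those with the higher sum. Within these sets no correlation of Hlf with the list passed an exact permutation test (r = 0.64, p = 0.077, n = 8, and r = 0.11, p = 0.78, n = 9), and neither did that of Hlf with Npas2 (r = 0.56, p = 0.15, n = 8, and r = -0.20, p = 0.63, n = 9, exact permutation tests). The sets were formed on a list built from the pattern of Hlf, and each set narrows the range of Hlf and Npas2. At n = 8 and n = 9 these tests therefore cannot decide whether either relation holds within the sets. Correlations over all 17 samples are not used below for Hlf and Npas2, because their values separate into the 2 sets.

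**Figure D4:**
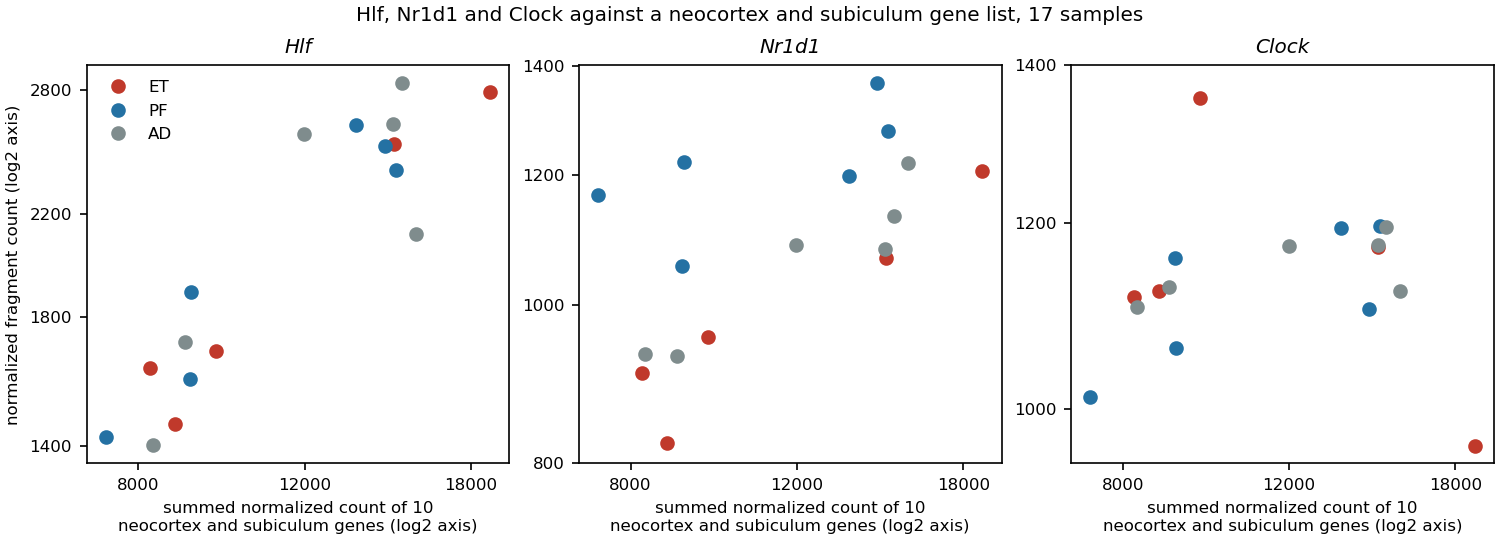
Normalized counts of Hlf, Nr1d1 and Clock (y axes, log2) against the summed normalized count of 10 neocortex and subiculum genes (x axis, log2) in 17 samples, coloured by diet. The 8 samples with the lower sum hold Hlf at 1401 to 1887 and the 9 with the higher sum at 2114 to 2834, whereas the Clock values of the 2 sets overlap.

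When the log2 sum of this list was added as a covariate, an alternative chosen after the data had been seen, Nr1d1 was called in edgeR's test between ET and PF and between PF and AD. Its log2 fold change for ET against PF was -0.31 (SE 0.06, adjusted p = 0.0070), and for PF against AD it was 0.22 (SE 0.05, adjusted p = 0.011). In both fits it was the 1 clock gene of the 10 called, compared with 6.38% and 6.24% of all genes. Between ET and AD, Nr1d1 had a log2 fold change of -0.08 (SE 0.05) in this fit, with an adjusted p of 0.88.

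Covariation over samples was computed for 65 pairs, the 45 pairs of the 10 genes and each gene with Arntl and Npas2. Adjustment was over the 65. Of the 45 pairs without Hlf and Npas2, 7 passed an adjusted p of 0.05 in permutation tests, and 5 of these 7 were among Dbp, Nr1d1, Nr1d2 and Ciart, which form 6 pairs. By rho 3 of the 45 passed, 2 of them among those 7. The third was Per1 with Per2, with rho = 0.73 and r = 0.58 (permutation, adjusted p = 0.028 and 0.070). For Per1 and Per2, r was 0.30 on deviations from the diet means, 0.67 without the 2 farthest samples, and 0.80 and 0.57 within the 8 and the 9 samples defined by the neocortex and subiculum list (exact permutation p = 0.025 and 0.10). Nr1d2 and Ciart had r = 0.82 and rho = 0.72 (permutation, adjusted p = 0.0029 and 0.028). On deviations from the diet means their r was 0.81, without the 2 samples farthest from the median of Nr1d2 it was 0.73, and within the 8 and the 9 samples defined by the neocortex and subiculum list it was 0.78 and 0.83 (exact permutation p = 0.029 and 0.0081). The relation of these 2 genes therefore held on deviations from the diet means and within both sets of samples.

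Dbp and Ciart had r = 0.75 and rho = 0.69 (permutation, adjusted p = 0.010 and 0.040). Their r was 0.81 on deviations from the diet means, 0.62 without the 2 farthest samples, and 0.83 and 0.62 within the 8 and the 9 samples (exact permutation p = 0.0072 and 0.072). Dbp and Nr1d1 had r = 0.73 and rho = 0.65 (permutation, adjusted p = 0.016 and 0.058), with r = 0.68 on deviations and 0.59 without the 2 farthest samples. Within the 8 and the 9 samples their r was 0.60 and 0.62, which did not pass exact permutation tests (p = 0.13 and 0.078). Dbp and Nr1d2 had r = 0.66 and rho = 0.50 (permutation, adjusted p = 0.034 and 0.16), with r = 0.63 on deviations from the diet means. Their r dropped to 0.41 without PF replicate 6 and PF animal 11f5, so that relation rested in part on those samples. Within the 8 and the 9 samples it was 0.44 and 0.50 (exact permutation p = 0.27 and 0.17). Nr1d1 and Ciart had r = 0.64 and rho = 0.58 (permutation, adjusted p = 0.039 and 0.12), and 0.50 without the 2 farthest samples. Within the 8 and the 9 samples their r was 0.63 and 0.38, which did not pass exact permutation tests (p = 0.073 and 0.31).

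The other 2 pairs were Per2 with Per3, with r = 0.69 and rho = 0.52 (permutation, adjusted p = 0.024 and 0.16), and Per1 with Tef, with r = 0.66 and rho = 0.49 (permutation, adjusted p = 0.034 and 0.16). For Per2 and Per3, r was 0.55 on deviations from the diet means and 0.65 without the 2 farthest samples, and within the 8 and the 9 samples it was 0.61 and 0.78 (exact permutation p = 0.058 and 0.0098). For Per1 and Tef, r was -0.06 within the 8 samples with the lower sum and 0.88 within the 9 with the higher sum (exact permutation p = 0.88 and 0.0016). Per1 and Dbp had r = 0.61, with an adjusted permutation p of 0.050 that did not pass, and r was 0.09 without PF replicate 6 and PF animal 11f5. Over the 14 samples without the choroid plexus-rich libraries, Nr1d2 with Ciart was the 1 pair of these 45 to pass, while the r of Dbp and Ciart was 0.71 there.

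**Figure D5:**
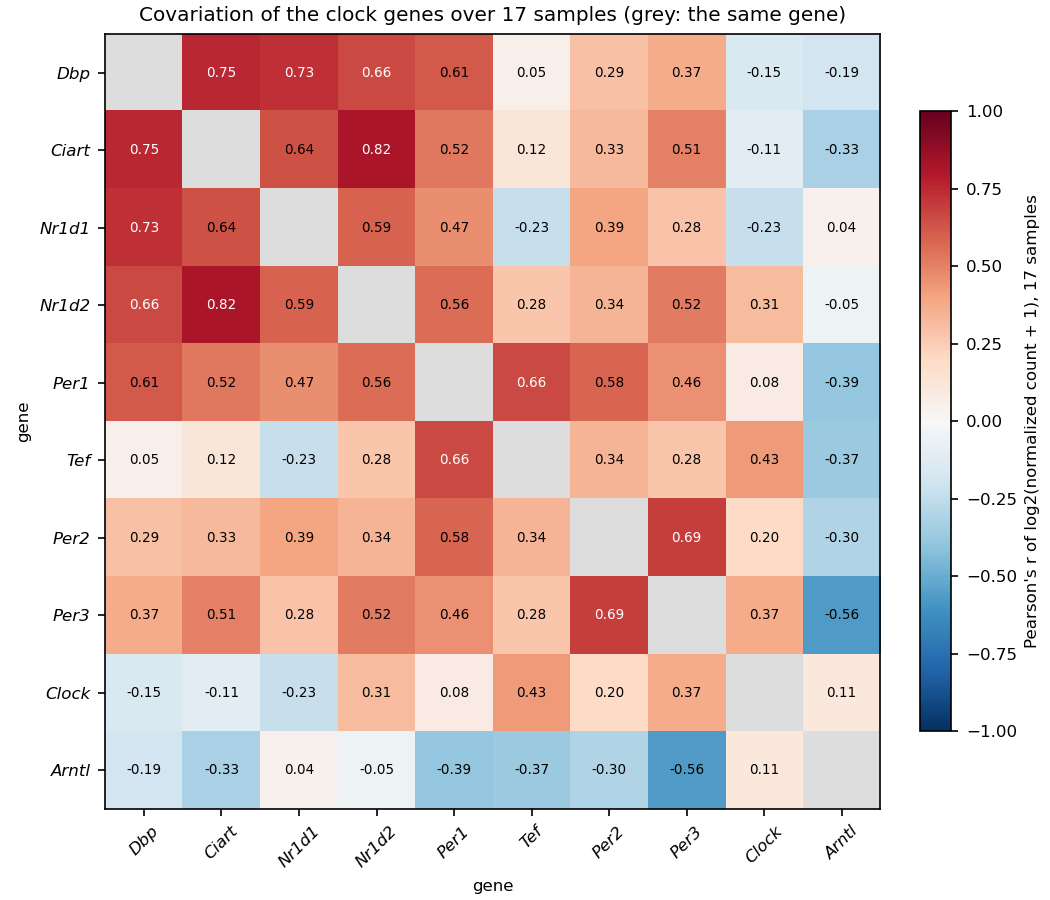
Pearson's r (colour and number) of log2(normalized count + 1) over 17 samples for 9 clock genes and Arntl; Hlf and Npas2 are left out because their values separate the samples into 2 sets. Dbp, Ciart, Nr1d1 and Nr1d2 form a block with r from 0.59 to 0.82, and 7 of the 9 genes have r below 0 with Arntl.

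Arntl, which the loop drives in the opposite phase, had r below 0 with 7 of the 9 clock genes other than Hlf, the lowest being -0.56 with Per3 (permutation, adjusted p = 0.073, rho = -0.27), and none of the 9 passed. On deviations from the diet means that r was -0.40. The exceptions were Nr1d1, with r = 0.04, and Clock, with 0.11. On deviations from the diet means, r with Arntl was -0.33 for Tef, -0.13 for Per1, -0.12 for Ciart, -0.03 for Dbp and -0.0019 for Per2. It was 0.04 for Clock, 0.16 for Nr1d2 and 0.51 for Nr1d1. Clock had r from -0.23 with Nr1d1 to 0.43 with Tef, and none of its pairs passed. In a further family of 40 pairs, each of the 10 genes with the summed level of immediate early, glucocorticoid-responsive, choroid plexus, and thalamus and habenula genes, none passed an adjusted permutation p of 0.05. The r of Per1 with the immediate early genes was 0.53 (permutation, p = 0.026, adjusted p = 0.52), with rho = 0.44, and it was 0.70 on deviations from the diet means, 0.53 over the 14 samples and 0.32 without PF replicate 6 and PF animal 11f5. PF replicate 6 had the highest immediate early sum of the 17 samples, 5133. A family of 30 pairs added after the data had been seen set each gene against the neocortex and subiculum list, that list without 3 genes, and 5 dentate granule cell genes. The pairs with Hlf are not used, since the list was built from its pattern. Of the others 1 passed, Tef with the dentate granule cell genes (r = 0.71, rho = 0.60, permutation, adjusted p = 0.011 and 0.081). Its r was 0.71 on deviations from the diet means and 0.77 over the 14 samples. Without ET replicate 1 and AD replicate 6 it was 0.34, so the relation rested in part on those samples. Nr1d1 had r = -0.52 and rho = -0.51 with the dentate granule cell genes (permutation, adjusted p = 0.11 and 0.12), with r = -0.53 without ET replicate 4 and PF replicate 6 and -0.91 on deviations from the diet means. Its r with the neocortex and subiculum list was -0.17 within the 8 and 0.25 within the 9 samples (exact permutation p = 0.67 and 0.53), and since this list separates the samples into 2 sets, no r over all 17 is given.

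The genes most similar in pattern to 4 of the clock genes were listed by r over 17 samples among 16270 other genes, as a description. For Per1 they were Rps6ka2 (r = 0.85), Plpp3, Tp53bp2, Irs2 and Egr2 (r = 0.77), of which Egr2 is an activity-induced transcription factor gene that ran from 13.3 to 126 and was highest in PF replicate 6. For Dbp they were Apold1 (r = 0.81), Kif26a, Zfp513, Rapgef1 and Tns2 (r = 0.77). For Nr1d1 they were Col9a1 (r = 0.90), LOC108350962, Doc2a, Ltk and Cdk20 (r = 0.86), and Col9a1 had at most 15.1 normalized counts in any sample. For Clock they were Elapor2 (r = 0.92), Dip2b, Tcp11l1, Atrn and Fat3 (r = 0.90), and for Elapor2 r was 0.95 on deviations from the diet means.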

How the data were processed

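RNA from 17 hippocampi was sequenced as TruSeq stranded mRNA libraries. Per the study's methods, reads were trimmed with fastp 0.23.2, aligned to mRatBN7.2 with Bowtie2 2.4.2, and fragments with a mapping quality of at least 10 were counted over exons with featureCounts 2.0.1, reads being allowed to fall in several features. The authors deposited the result as estimated counts per gene, the mean of 3 technical replicates, which were rounded to whole numbers here. The annotation release and the strand setting are not given in the sources used here. The 10 genes and the gene lists were chosen with earlier results of these data known.

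Genes were filtered with filterByExpr, scaled by TMM and tested with edgeR 4.0.16 (quasi-likelihood, R 4.3.3), in pairs of diets, with p-values adjusted over all genes tested by the Benjamini-Hochberg method and an adjusted p of 0.05 as the threshold. A stricter rule, an absolute log2 fold change over 1.5 together with an adjusted p under 0.01, was applied beside it and called no clock gene. The study had left 3 samples out of its final analysis, and these were the choroid plexus-rich libraries. They were kept here, and the 14 others formed an alternative. Other alternatives were DESeq2 1.42.0, its RLE scaling, no filter, summed technical replicates, sex, hemisphere, a fit of all diets, a replicate block, each sample left out, and the neocortex and subiculum covariate, which was chosen after the data had been seen. Correlations used log2(normalized count + 1), with 100000 permutations, two-sided, or exact permutations for fewer than 10 samples. The scripts were tested on simulated data. Named genes were all 10 clock genes, of the other pathway genes those called and Arntl, Npas2, Cry1, Cry2 and Nfil3, and for Per1, Dbp, Nr1d1 and Clock the 5 most similar genes. Noct and the genes most like Hlf were added after their values had been seen. Some genes of the lists are not reported here. PF animals 11f5 and 11f6 have no replicate number because the labels give the diet but not which replicate they are, so the block was fitted without them, and a fit without them and without a block was added after the data had been seen. Promoters were taken from RefSeq (GRCr8).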

Additional observations from a re-analysis of the deposited data

Results flagged for a closer look

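Of 72 sets of values, each 1 gene or summed list in 1 diet, 6 held a sample far from the rest by Dixon's criterion, which chance alone gives in about 1 of 20 sets. None was a value of the 10 clock genes. Nfil3 was 159 in ET replicate 1, against 119 to 129 in the other ET samples. The summed choroid plexus genes were 127074 in ET replicate 2, 136910 in PF animal 11f6 and 149061 in AD replicate 4. The summed pineal genes were 14299 in AD replicate 6. The summed immediate early genes were 5133 in PF replicate 6, against 2314 to 2937 in the other PF samples, and the same sample had the highest Per1 level.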

How the results depend on the processing

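The comparisons with no clock gene called kept that count under every alternative run for ET against AD, for sex and for the interaction. Between ET and PF, 1 of the 10 was called with DESeq2, with hemisphere as a covariate, in 1 fit of the 3 diets and with the neocortex and subiculum covariate, and the count ranged from 0 to 1 when 1 sample was left out. Between PF and AD, 1 was called with that covariate, and 0 in every fit that left out 1 sample. Before adjustment, the count of clock genes below PF in ET went from 4 to 3 without PF animals 11f5 and 11f6, which carry no replicate number, to 2 with the replicate block in the remaining samples, and to 3 to 5 when 1 sample was left out. The 2 genes higher in PF than in AD before adjustment became 0 over 14 samples, 0 without PF animals 11f5 and 11f6, 0 with the replicate block, 4 with the covariate, and 0 to 5 when 1 sample was left out. The 11 pairs of genes past the threshold, 4 of them with Hlf or Npas2 and not used in the text, became 2 over 14 samples and 6 to 15 when 1 sample was left out, with 6 without ET replicate 4 and 7 without PF animal 11f5 or without AD replicate 2. The cause of these changes was not tested. For ET against PF, log2 fold changes of the opposite sign were found as follows: Clock was -0.0013 with the replicate block, Cry1 was -0.0089 over 14 samples. When 1 sample was left out, Hlf ranged from -0.18 to 0.066, Clock ranged from -0.035 to 0.087, Npas2 ranged from -0.33 to 0.026, Cry1 ranged from -0.015 to 0.072. For ET against AD, log2 fold changes of the opposite sign were found as follows: Ciart was -0.0036 and Cry1 was -0.048 over 14 samples, Cry1 was -0.0047 with sex as a covariate, Kmt2a was -0.011 with the replicate block, Sfpq was 0.0031 in DESeq2, Sfpq was 0.0033 with RLE scaling, Sfpq was 0.0029 without the filter, Sfpq was 0.0018 with summed technical replicates. When 1 sample was left out, Ciart ranged from -0.0087 to 0.16, Per3 ranged from -0.13 to 0.011, Tef ranged from -0.083 to 0.0020, Clock ranged from -0.077 to 0.048, Nr1d2 ranged from -0.064 to 0.026, Arntl ranged from -0.069 to 0.042, Cry1 ranged from -0.033 to 0.044, Nfil3 ranged from -0.016 to 0.10, Kmt2a ranged from -0.13 to 0.14, Sfpq ranged from -0.024 to 0.029. For PF against AD, log2 fold changes of the opposite sign were found as follows: Dbp was -0.072 with the replicate block, Hlf was 0.0066 and Npas2 was 0.043 with the neocortex and subiculum covariate. When 1 sample was left out, Tef ranged from -0.017 to 0.045, Npas2 ranged from -0.19 to 0.025, Cry1 ranged from -0.066 to 0.0203. Kmt2a and Sfpq, called between PF and AD, each lost that call under some alternatives. Deviations of same-numbered samples of ET and PF had a mean correlation of 0.18, from -0.08 to 0.57 over 3 pairs. The mean was -0.03 over 17 differently numbered pairs. For ET and AD the means were -0.10 and 0.03, and for PF and AD 0.03 and 0.005. The 3 pairs of ET and PF are too few to decide whether those numbers mark pairs. The main tests did not take the replicate numbers as pairs, and the replicate block is an alternative. Ciart, at 41.5 to 89.6 normalized counts, had the fewest counts of the 10 genes. In the fits with AD, the sex covariate used labels that Y-linked transcripts went against in 2 AD libraries. Each diet came from 1 litter, which no alternative changes.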
